A study of Mus musculus with 6 samples.

Results

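The 7 mRNAs described here, Bloc1s1, Scara3, Hgsnat, Pdgfrb, Col6a1, Sparc and Pmp22, have each been reported as substrates of IRE1-dependent decay. They were taken by gene name from a table of 54532 genes, and all 7 were found. The RNA-seq libraries, 6 in all, were made from total RNA of NIT-1 cells, per the labels, a beta-cell line derived from a mouse insulinoma. EV_Tm (n = 3) had been treated for 16 h with vesicles released by mesenchymal stem cells of human umbilical cord, and PBS_Tm (n = 3) for 16 h with PBS. After that, both received Tm for 8 h, read here as tunicamycin, which stops N-linked glycosylation and so puts the endoplasmic reticulum (ER) under stress. A treatment label calls the PBS_Tm samples untreated, while the design text gives them Tm, and the design text was followed. Libraries without Tm were not analysed here, so the values compare vesicles with PBS under Tm and do not give the decay that Tm itself brings about.

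IRE1 is an ER membrane sensor whose cytosolic RNase domain is switched on by unfolded protein. It cuts the Xbp1 mRNA, whose ends are then joined into a form that encodes an active transcription factor. The same RNase also cuts other mRNAs, most of them at the ER membrane, and the fragments are degraded, a process called regulated IRE1-dependent decay. The cut in Xbp1 lies in short hairpins with a loop of 7 bases, and Bloc1s1 is the substrate most widely used to read the decay. Gene-level counts show neither the cut nor the splice, only how much mRNA of each gene was present.

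Hairpins of this kind are shown first, because IRE1 is known to cut in them, although a match of letters is a description and not a cut site. The loop letters CNGCAGN, closed by at least 4 successive base pairs (Watson-Crick or G-U), were looked for on the sense strand of 1 GENCODE M21 transcript for each gene. The minimum of 4 pairs was set after the sequences had been seen, and Xbp1 served as the known case. Each line gives 29 bases of the mRNA written as DNA, 5′ to 3′, with the 7 loop bases in capitals.
Xbp1, upstream cut: gtctgctgagtCCGCAGCactcagactat
Xbp1, downstream cut: tatgtgcacctCTGCAGCaggtgcaggcc
Bloc1s1: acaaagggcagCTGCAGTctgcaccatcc
Pmp22: tgagcgaatggCTGCAGTctgtccaggcc
Scara3: ccgcgggggccCTGCAGAggcccgcgcag
The Xbp1 windows lie at chr11:5524265-5524293 and chr11:5524291-5524319 (GRCm38, plus strand), in the coding sequence, and the stems beside their loops have 6 and 7 pairs. The Bloc1s1 window is at chr10:128920000-128920028 (minus strand), also in the coding sequence, with 4 pairs. The Pmp22 window crosses an exon junction and its loop is at chr11:63151124-63151130 (plus strand), in the coding sequence, with 4 pairs. The Scara3 window is at chr14:65953511-65953539 (minus strand), in the 5′ UTR, with 5 pairs.

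Such letters were in 3 of the 7 mRNAs and in 2497 of 21747 genes (11.5%). Among transcripts within 20% of the length of each, the share was 2.08% for Bloc1s1, 7.23% for Pmp22 and 13.9% for Scara3. Bloc1s1 and Pmp22 had exactly the minimum of 4 pairs, set after the sequences had been seen. A stricter minimum would leave both out, so the counts and shares depend on that choice. The transcripts of Hgsnat, Pdgfrb, Col6a1 and Sparc held no such match, which says only that these letters with this stem were not in the transcript searched. The bare loop letters CTGCAG were in the coding sequence of all but Sparc, and in 65.6% of all genes, so the letters alone are common. In RefSeq promoters (GRCm38.p6, 250 bases before to 50 after the start), 4 of the 7 genes were listed, with 7 promoters. CCACG, on either strand, was in 1 of those 7 and in 32.8% of all promoters, and ACGTG in 2 and in 19.6%. One Pmp22 promoter held both.

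The libraries held 28654248 to 32550268 counts, and 6 of the 7 genes had enough counts to be tested. The label was checked against 12 beta-cell markers: 8 were at 0 in every library, Ins2, Pdx1, Iapp and Nkx6-1 among them, and their summed level was 0.252 to 0.558 CPM (counts scaled to library size) in EV_Tm and 0.0977 to 0.248 CPM in PBS_Tm. The defining markers of the labelled cell type were thus absent or near absent. Of 6 acinar and ductal markers 3 were at 0. Their sum, mostly Sox9, was 113 to 116 CPM in EV_Tm and 84.6 to 92.6 CPM in PBS_Tm. The 6 macrophage markers, mostly Cd68, summed to 4.88 to 6.74 CPM in EV_Tm and 2.73 to 4.4 CPM in PBS_Tm. For 6 markers of other islet endocrine cells the sum was 20.3 to 21.1 CPM in EV_Tm and 22 to 24.9 CPM in PBS_Tm. That sum was mostly Hhex, with means of 19.3 CPM in EV_Tm and 22.2 CPM in PBS_Tm. Among the hormone genes, Sst was at 0 in every library and Ppy had at most 1 count. Gcg had 5 counts in EV_Tm replicate 3 and 0 elsewhere. The part of these lists in the results was not tested. The sum of 6 endothelial markers, 2 of them at 0, overlapped between the groups, at 37.4 to 38.5 CPM in EV_Tm and 37.6 to 38.8 CPM in PBS_Tm. Markers of fibroblasts, pericytes and Schwann cells are given beside the genes they bear on.

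The reported substrates did not move as one. Sparc, Col6a1 and Hgsnat rose with vesicles, Pdgfrb fell, Pmp22 and Bloc1s1 did not pass the test, and Scara3 had no counts. Thus 4 of the 6 genes tested passed (quasi-likelihood test of edgeR, p under 0.05 after Benjamini-Hochberg adjustment over all genes), 3 higher and 1 lower, where 47.4% of 16844 genes tested passed, 22.6% higher and 24.7% lower. Their median log2 fold change was 0.34, against 0.01 for all genes tested. The shares and the median over all genes tested are also the background for every list below. In those 4 genes the libraries of one group lay wholly above or below those of the other, as in 54.5% of all genes. In bulk libraries, less RNA per cell and fewer cells that express a gene cannot be told apart, and since no label gives the culture a sample came from, the p-values cover only the spread among these libraries, which may be technical.

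The genes stood at very different levels. Per length, in TPM (counts scaled to gene length and library size), Sparc was highest, at 657 ± 15.1 in EV_Tm and 544 ± 17 in PBS_Tm (SD, n = 3 each, as for all such values below). Col6a1 followed at 250 ± 3.11 TPM in EV_Tm and 151 ± 5.87 in PBS_Tm, and Hgsnat at 104 ± 3.92 in EV_Tm and 74 ± 3.68 in PBS_Tm. Far below lay Pmp22, with 5.11 ± 0.35 TPM in EV_Tm and 5.9 ± 1.05 in PBS_Tm. Pdgfrb was at 1.44 ± 0.265 TPM in EV_Tm and 4.29 ± 0.167 in PBS_Tm, and Bloc1s1 at 1.73 ± 0.454 in EV_Tm and 1.37 ± 0.0221 in PBS_Tm. The TPM of Bloc1s1 was computed over all 1288 of its exonic bases. Of these, 720 are shared with another gene, as described below, so its place beside Pdgfrb is uncertain. Neighbours in this order had separate values in each group, except Bloc1s1 and Pdgfrb, which overlapped in EV_Tm and were apart in PBS_Tm. So the 3 genes that rose were the 3 most abundant ones.

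Bloc1s1 (ENSMUSG00000090247, chromosome 10, 128917882 to 128924035, minus strand, coordinates here and below on GRCm38) encodes a small cytosolic subunit shared by BLOC-1 and BORC, complexes that form lysosome-related organelles and position lysosomes. Its counts were 23, 13 and 24 in the EV_Tm libraries and 16, 15 and 16 in the PBS_Tm libraries. Scaled to library size these were 0.738, 0.448 and 0.744 CPM in EV_Tm, against 0.503, 0.497 and 0.497 CPM in PBS_Tm. In EV_Tm, 2 libraries lay above all PBS_Tm libraries and the other lay below them, so the groups overlapped. The log2 fold change was 0.37 ± 0.44 (edgeR SE, adjusted p = 0.519), with a 95% interval of -0.53 to 1.27. That interval holds both a fall and a rise, so with these counts no change of Bloc1s1 could be told.

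Bloc1s1 shares exons with a neighbour. It overlaps Rdh5, a retinol dehydrogenase gene on the same strand (chromosome 10, 128913593 to 128922888), and 720 of the 1288 exonic bases of Bloc1s1 (55.9%) are also exons of Rdh5. In the transcript searched for hairpins, 366 of 550 bases are so shared, among them all 7 bases of the hairpin loop printed above. The other 6 substrates share no exonic base with another gene on either strand. How reads in shared exons were assigned is not given in the sources used here, but of 133 protein-coding genes whose exonic bases are all shared on the same strand, 133 had 0 counts in every library. Of 20284 with no shared base, 5441 (26.8%) had 0 counts. Rdh5 itself had 113, 122 and 103 counts in EV_Tm and 91, 126 and 143 in PBS_Tm, and its log2 fold change was -0.06 ± 0.20 (edgeR SE, adjusted p = 0.834). The level of Bloc1s1 is therefore uncertain, and the part of the shared exons in it was not tested.

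**Figure D1:**
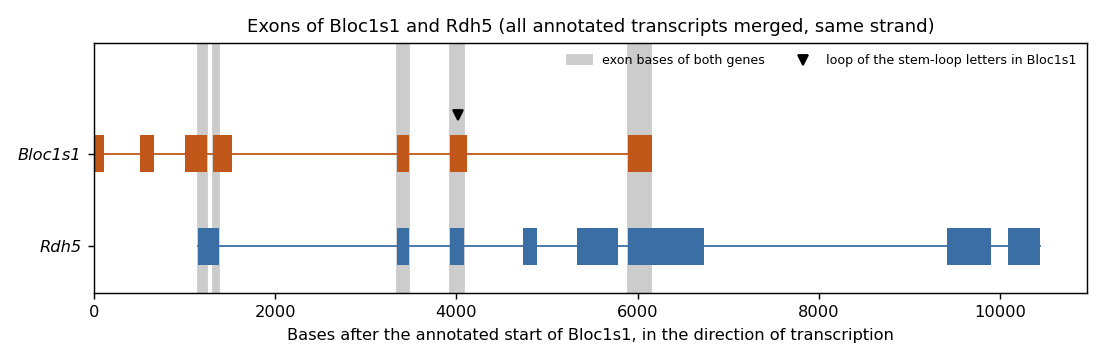
Exons of Bloc1s1 (top) and Rdh5 (bottom), all annotated transcripts of each merged, against the distance in bases from the annotated start of Bloc1s1. Grey bands mark the 720 exonic bases that both genes hold, and the triangle marks the hairpin loop, which lies inside a band.

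The partners of Bloc1s1 in BLOC-1 and BORC had higher levels than the uncertain one of Bloc1s1. Bloc1s2, which sits in both complexes, stood at 106 ± 3.15 TPM in EV_Tm and 170 ± 11.4 in PBS_Tm, and Snapin, another shared subunit, at 68.6 ± 2.26 TPM in EV_Tm and 67.5 ± 4.66 in PBS_Tm. Of 12 partner genes, all tested, 1 rose, 3 fell and 8 did not pass (median log2 fold change -0.04). Of all genes tested, 22.6% rose and 24.7% fell. Bloc1s2 was 1.57-fold lower (edgeR adjusted p = 3.27e-08) and Bloc1s5 1.38-fold lower, while Borcs8, a BORC subunit, was at 19.5 ± 0.563 CPM in EV_Tm and 12.6 ± 1.14 in PBS_Tm. The fall of Dtnbp1, the dysbindin subunit, by 0.28 on the log2 scale was not called without EV_Tm replicate 1, EV_Tm replicate 3 or PBS_Tm replicate 2 (adjusted p = 0.0943, 0.0742 and 0.0886). Snapin and Rdh5 were named after their values had been seen.

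Scara3 (ENSMUSG00000034463, chromosome 14, 65919394 to 65953935), a scavenger receptor-like membrane protein linked to oxidative stress, had 0 counts in all 6 libraries. With 0 counts the level may still reach that of 3 counts, 0.0922 to 0.105 CPM depending on the library, a limit for counting error only. It gave no comparison between the groups. Of 4 other class A scavenger receptor genes, Scara5, a ferritin receptor, was tested and was higher, at 64.7 ± 1.18 CPM in EV_Tm and 54.5 ± 0.729 in PBS_Tm (edgeR adjusted p = 0.000422). Msr1, Marco and Colec12 had too few counts.

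Pdgfrb (ENSMUSG00000024620, chromosome 18, 61045150 to 61085061), the beta receptor for platelet-derived growth factor and a mark of pericytes and fibroblasts, went the other way from the abundant substrates. Its level was 1.83, 2.65 and 2.36 CPM in EV_Tm, against 6.41, 6.69 and 6.81 CPM in PBS_Tm, from 57 to 77 counts in each EV_Tm library and 202 to 219 in each PBS_Tm library. Every EV_Tm library lay below every PBS_Tm library. Pdgfrb was 2.91-fold lower, a log2 fold change of -1.54 ± 0.18 (edgeR SE, adjusted p = 9.10e-08, 95% interval -1.91 to -1.17), and 174 of the 16844 genes tested had a larger fall. It had the largest change among the 6, on a low level.

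Its relatives went different ways. Pdgfra, the other receptor, was at 7.66 ± 1.20 CPM in EV_Tm and 9.05 ± 1.08 in PBS_Tm and did not pass (log2 fold change -0.24 ± 0.13, edgeR SE, adjusted p = 0.151), though it did without EV_Tm replicate 1 (adjusted p = 0.0385). Of the 5 genes of the family tested, 3 rose and 1 fell. The ligand genes Pdgfa and Pdgfb rose, with log2 fold changes of 0.63 ± 0.05 and 0.71 ± 0.05 (SE). Pdgfb stood at 99.1 ± 4.09 CPM in EV_Tm and 60.5 ± 1.54 in PBS_Tm. The ligand gene Pdgfc was lower, at 0.359 ± 0.0486 CPM in EV_Tm and 0.822 ± 0.263 in PBS_Tm, a call that did not hold without 5 of the 6 libraries taken singly, all but PBS_Tm replicate 2 (adjusted p 0.0565 to 0.166), or with the replicate number as a block (adjusted p = 0.052). Pdgfrl, a receptor-like gene, rose by a log2 fold change of 0.26, and without EV_Tm replicate 3 did not pass (adjusted p = 0.0511).

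Markers of fibroblasts and pericytes, the cells in which Pdgfrb, Col6a1 and Sparc are best known, were low. Of 12 such markers 2 were at or under 3 counts in every library and Acta2 was at 0, and their summed level was 23.3 to 28.3 CPM in EV_Tm and 25.8 to 29.2 CPM in PBS_Tm. The sums overlap, but single markers went opposite ways. Col3a1, a fibrillar collagen chain, had 223, 173 and 181 counts in EV_Tm, against 118, 119 and 101 in PBS_Tm, and Col1a1, another, had 58, 44 and 76 counts in EV_Tm, against 117, 95 and 96 in PBS_Tm. The part of these markers in the values of Pdgfrb, Col6a1 and Sparc was not tested.

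Hgsnat (ENSMUSG00000037260, chromosome 8, 25944453 to 25976753) encodes the lysosomal membrane enzyme that acetylates heparan sulfate so that it can be broken down. It stood at 98.2, 103 and 96.2 CPM in EV_Tm, against 71.1, 72.1 and 64.1 CPM in PBS_Tm. All EV_Tm libraries were above all PBS_Tm libraries. The rise was 1.44-fold, a log2 fold change of 0.52 ± 0.05 (edgeR SE, adjusted p = 1.34e-08). Of the 9 other genes of heparan sulfate breakdown, all tested, 2 rose, 1 fell and 6 did not pass (median log2 fold change 0.03). Gusb, the lysosomal glucuronidase, was at 104 ± 1.75 CPM in EV_Tm and 79.6 ± 2.83 in PBS_Tm. Sgsh, the sulfamidase, rose by a log2 fold change of 0.28 and did not pass without EV_Tm replicate 3 (adjusted p = 0.0598). Idua, the iduronidase, fell by 0.47 on the log2 scale. Naglu, the glucosaminidase that acts after Hgsnat in the pathway, had a log2 fold change of 0.11 ± 0.07 (edgeR SE, adjusted p = 0.199).

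Col6a1 (ENSMUSG00000001119, chromosome 10, 76708792 to 76726168) encodes the alpha 1 chain of collagen VI, a beaded filament of the pericellular matrix. Its level was 317, 320 and 312 CPM in EV_Tm, against 195, 184 and 181 CPM in PBS_Tm, with the groups well apart. It was 1.69-fold higher (log2 fold change 0.76 ± 0.04, edgeR SE, adjusted p = 9.52e-14), and 1240 of the 16844 genes tested had a larger rise. Other collagen VI chains also rose, Col6a2 by a log2 fold change of 0.80 ± 0.19, Col6a3 by 0.69 ± 0.08 and Col6a4 by 0.66 ± 0.08 (SE). Col6a6 had 0.26 ± 0.38 and did not pass (edgeR adjusted p = 0.601). The chains were far from equal in level, since Col6a2 stood at 1.89 ± 0.0361 TPM in EV_Tm and 1.11 ± 0.159 in PBS_Tm, and Col6a3 at 9.7 ± 0.525 TPM in EV_Tm and 6.14 ± 0.544 in PBS_Tm.

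Among matrix partners of collagen VI, Mmp14, a membrane metalloproteinase, was at 139 ± 3.14 CPM in EV_Tm and 105 ± 1.92 in PBS_Tm. The collagen VI receptor gene Antxr2 was slightly lower, with a log2 fold change of -0.18 ± 0.04 (edgeR SE, adjusted p = 0.000709). The proteoglycan gene Cspg4, a pericyte marker, was lower at 1.35 ± 0.398 CPM in EV_Tm and 2.46 ± 0.655 in PBS_Tm, a call not kept without EV_Tm replicate 1 (adjusted p = 0.0777) or PBS_Tm replicate 3 (adjusted p = 0.105). Together 4 of the 7 tested genes of this list rose, 2 fell and 1 did not pass.

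Sparc (ENSMUSG00000018593, chromosome 11, 55394500 to 55423183) encodes osteonectin, a secreted calcium-binding matrix glycoprotein. It stood at 708, 737 and 711 CPM in EV_Tm, against 605, 582 and 563 CPM in PBS_Tm, again with no overlap. The difference was small and precise, 1.23-fold higher (log2 fold change 0.30 ± 0.04, edgeR SE, adjusted p = 2.32e-07). Of the 5 SPARC family genes tested, Smoc1 and Sparcl1 rose, with log2 fold changes of 0.57 ± 0.06 and 0.51 ± 0.13 (SE), and none fell. Smoc2 (0.55 ± 0.24), Fstl1 (0.63 ± 0.26) and Spock2 (-0.36 ± 0.21) did not pass. Fstl1 lay near the threshold (edgeR adjusted p = 0.0507) and passed without PBS_Tm replicate 3 (adjusted p = 0.0294). Smoc2 (adjusted p = 0.0605) passed without EV_Tm replicate 2 (adjusted p = 0.026) or PBS_Tm replicate 1 (adjusted p = 0.00939).

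Pmp22 (ENSMUSG00000018217, chromosome 11, 63128982 to 63159547) encodes peripheral myelin protein 22, a tetraspan membrane protein that folds poorly and is best known from Schwann cells. Its level was 3.56, 3.20 and 3.66 CPM in EV_Tm, against 3.55, 4.80 and 3.45 CPM in PBS_Tm. One PBS_Tm library was above all others and the remaining values were mixed. The log2 fold change was -0.18 ± 0.19 (edgeR SE, adjusted p = 0.478, 95% interval -0.57 to 0.22), and without PBS_Tm replicate 2 it was -0.02. Of its family, Emp1 and Emp3 rose, with log2 fold changes of 0.27 ± 0.05 and 0.39 ± 0.06 (SE), and Tmem47, a more distant relative, fell by 0.86 on the log2 scale. Emp2 had 0.56 ± 0.39 and did not pass (edgeR adjusted p = 0.258), but did without PBS_Tm replicate 1 (adjusted p = 0.0346). Of 6 Schwann cell markers, Foxd3 was at 0 and Sox10 at 4 counts or fewer, and their summed level was 9.88 to 11.4 CPM in EV_Tm and 16.6 to 17 CPM in PBS_Tm. The part of these markers in the value of Pmp22 was not tested.

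**Figure D2:**
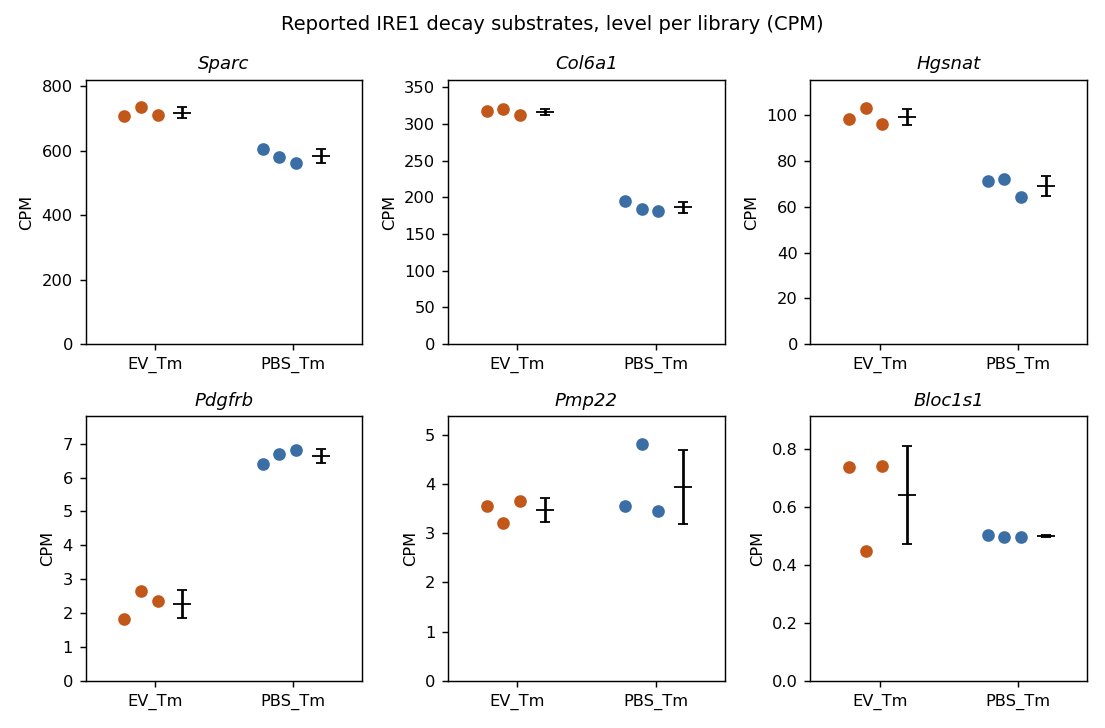
Level in CPM, counts scaled to library size (y axis, from 0, different for each panel) of the 6 reported substrates with enough counts, with 1 point per library and the mean ± SD beside them. EV_Tm and PBS_Tm are apart for Sparc, Col6a1, Hgsnat and Pdgfrb, with Pdgfrb alone lower in EV_Tm, and they overlap for Pmp22 and Bloc1s1.

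**Figure D3:**
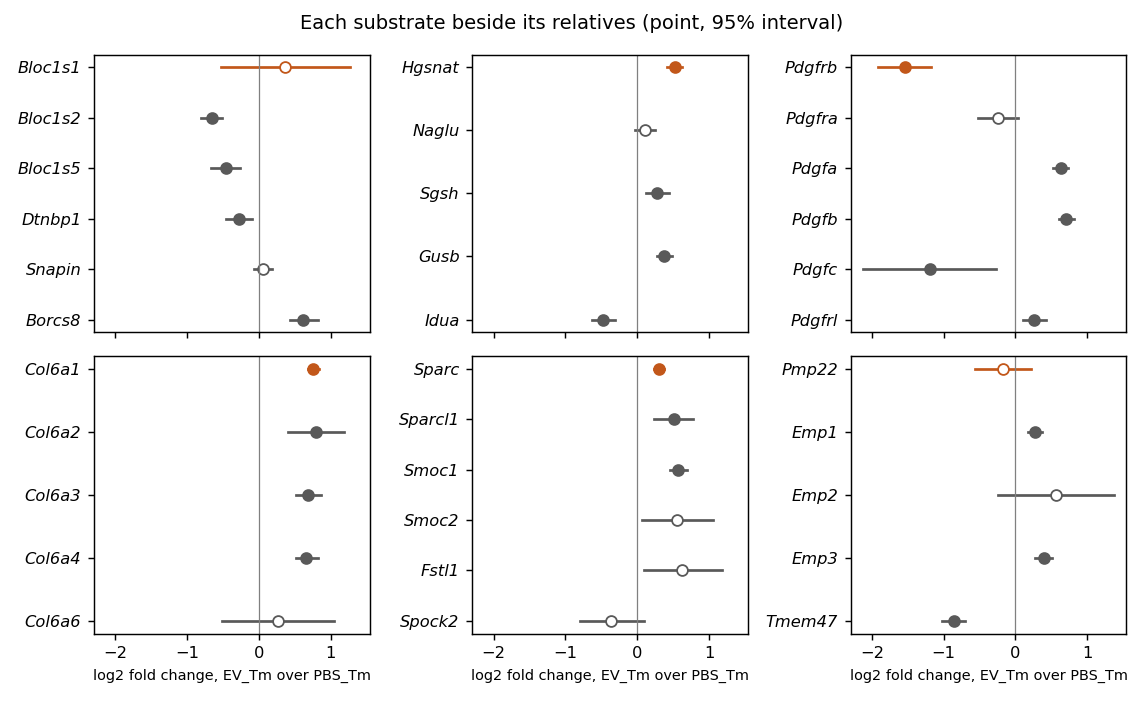
Log2 fold change of EV_Tm over PBS_Tm with its 95% interval for each reported substrate (orange) and for relatives of its family or complex (grey), filled where the edgeR test passed. Col6a1 lies with 3 other collagen VI chains at 0.66 to 0.80, and Pdgfrb lies at -1.54 while Pdgfa and Pdgfb are above 0.

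In contrast to the mixed directions of the substrates, targets of the transcription factor XBP1, the other output of IRE1, went one way. Of 15 direct targets of XBP1, all tested, 15 fell (median log2 fold change -1.37), where 24.7% of all genes tested fell. The list was chosen with earlier results of these data known, and the part of XBP1 in these falls was not tested. Dnajb11, an ER co-chaperone, was 5.10-fold lower, Pdia6, a disulfide isomerase, 4.60-fold, and Edem1, which sends misfolded glycoproteins to degradation, 4.12-fold. Xbp1 was at 52.1 ± 1.95 CPM in EV_Tm and 187 ± 5.44 in PBS_Tm. Ern1, which encodes IRE1 and whose own mRNA has been reported as a substrate, was at 85.9 ± 3.99 CPM in EV_Tm and 106 ± 1.69 in PBS_Tm (log2 fold change -0.30 ± 0.05, edgeR SE, adjusted p = 1.44e-05).

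The list of IRE1 machinery and regulators shares Dnajb9, Sec61a1, Syvn1 and Pdia6 with the XBP1 targets. In it, 3 of 17 tested genes rose and 12 fell, while 2 did not pass (median log2 fold change -0.60). Of all genes tested, 22.6% rose and 24.7% fell. Hspa5, the chaperone BiP that holds IRE1 inactive, was 10.5-fold lower, Sel1l and Syvn1, which degrade IRE1, 5.92-fold and 4.97-fold. Those that rose were Abl1, a kinase reported to raise IRE1 activity (log2 fold change 0.38 ± 0.04), Zbtb8os, the archease cofactor of the tRNA ligase (0.41 ± 0.08), and Tmbim6, an inhibitor of IRE1 (0.18 ± 0.04, SE). Rtcb, the ligase that joins the Xbp1 ends, had 0.01 ± 0.05 and its complex partner Fam98b 0.05 ± 0.06 (SE), and neither passed.

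Factors that degrade cleaved mRNA went both ways. Of 16 tested, 3 rose, 7 fell and 6 did not pass (median log2 fold change -0.15). Dis3, a nuclease of the exosome, was 1.67-fold lower, Ttc37, of the Ski complex that feeds the exosome, 1.44-fold lower and the ribosome rescue factor Hbs1l 1.35-fold lower. The exosome subunit gene Exosc5 rose by a log2 fold change of 0.48 ± 0.07 (SE) and the Ski genes Skiv2l and Wdr61 by 0.19 and 0.23, the last not called without EV_Tm replicate 2 (adjusted p = 0.109) or PBS_Tm replicate 2 (adjusted p = 0.0891). Xrn1, the 5′ exonuclease, named after its value had been seen, had a log2 fold change of -0.03 ± 0.05 (edgeR SE, adjusted p = 0.66), which had the other sign, 0.01, with plain library sizes.

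A further 12 mRNAs reported as IRE1 substrates, mostly in other cells or species, also went both ways. Of the 8 tested, 3 rose, 3 fell and 2 did not pass (median log2 fold change -0.14). Tapbp, the peptide-loading chaperone tapasin, was at 86.6 ± 2.42 CPM in EV_Tm and 61.0 ± 1.25 in PBS_Tm. Ergic3, a cargo receptor of the early secretory pathway, rose by a log2 fold change of 0.17 and Cd59a, a complement regulator, by 0.23. The rise of Ergic3 was not called without EV_Tm replicate 2 (adjusted p = 0.127) or PBS_Tm replicate 3 (adjusted p = 0.112), and that of Cd59a without any 1 of the 6 libraries (adjusted p 0.0512 to 0.167), without the count filter (adjusted p = 0.104) or with the replicate block (adjusted p = 0.0628). Tnfrsf10b, the death receptor DR5, fell by 0.53 on the log2 scale, the clock gene Per1 by 0.56 and Ern1 as given above. Galnt10 (0.02 ± 0.06) and Itgb2 (-0.37 ± 0.21, SE) did not pass. Ins1, Ins2 and Ighm were among those with too few counts, as were Ern2, Exosc6, Pdgfd, Col6a5, Spock1, Spock3, Lim2 and Perp of the other lists.

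**Figure D4:**
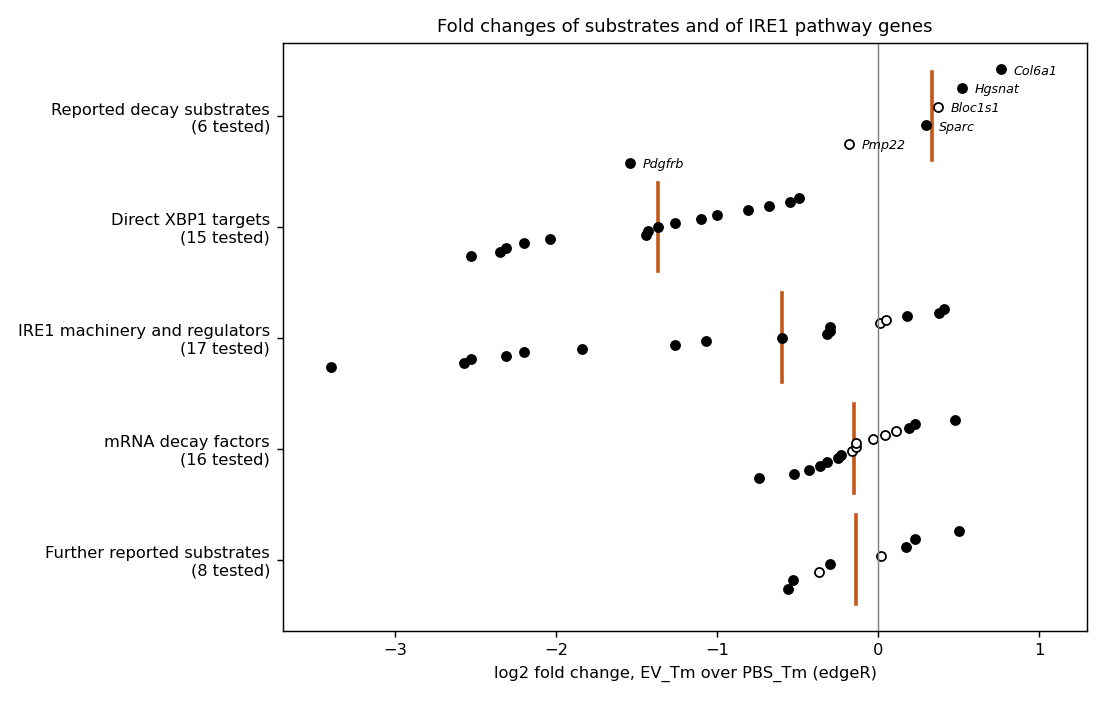
Log2 fold changes of EV_Tm over PBS_Tm (x axis) for the tested genes of 5 lists, 1 point per gene, filled where the edgeR test passed, with the list's median as an orange bar. All 15 XBP1 targets lie below 0, while the reported substrates run from Pdgfrb at -1.54 to Col6a1 at 0.76.

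Over the 6 libraries, the genes whose log2 CPM followed each substrate most closely, among 10971 candidates, were Tpcn1 for Sparc (Pearson r = 0.9987), Tinagl1 for Col6a1 (0.9997), Bin1 for Hgsnat (0.9990) and Fyn for Pdgfrb (0.9993). For Pmp22 the closest was Eif3m (0.9829) and for Bloc1s1 Ptch1 (0.9878), and 0 genes had an r above 0.99 with either. Both are the highest r of 10971 candidates over only 6 libraries, and Bloc1s1 had 13 to 24 counts in each library. These 2 pairs therefore do not show that the genes vary together. The libraries form 2 groups of 3, so a gene that differs between them can reach a high r by that alone, and 102 to 312 genes had an r above 0.99 with each of the 4 substrates that passed the test.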

How the data were processed

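Adaptor removal and alignment by HISAT2 2.2.1 were done by the authors, per the labels' protocols, and the submitters' processing notes list featureCounts 2.0.6. The deposited table holds raw counts for each gene, and other columns give gene start, end and length in bases. The notes name mm39, but positions of 53585 of 54495 shared gene IDs (98.33%), and of all 7 substrates, equal GENCODE M21 on GRCm38, so coordinates are read as GRCm38.

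EV_Tm and PBS_Tm were compared with edgeR 4.0.16 in R 4.3.3 (TMM, filterByExpr, two-sided quasi-likelihood F test, Benjamini-Hochberg over 16844 genes). SEs were derived from each fold change and its F value. CPM uses TMM-scaled library sizes, except for marker sums and 3-count limits. TPM was computed from counts and gene lengths. The mean chi-square per gene was 3.59 to 7.22 for pairs of libraries within groups and 86.7 to 97.1 for pairs between groups. Libraries of a group thus differed by more than counting error. All 6 libraries were kept.

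The substrates and gene lists were chosen with earlier results of these data known. Named genes are the substrates, up to 4 called genes for each list by smallest p, all genes of an outcome with 5 or fewer, and set relatives. Alternatives were other scalings and filters, DESeq2 1.42.0, limma-voom (limma 3.58.1), the replicate block, each library left out and an adjusted p under 0.01. Protein sequence features were not analysed here. Some genes of the lists are not reported here.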

Additional observations from a re-analysis of the deposited data

How the results depend on the processing

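For the 6 substrates tested, the direction and the side of the threshold were the same under every alternative that kept the gene: 4 passed, 3 higher and 1 lower, with other scalings and filters, with DESeq2, with limma-voom, at an adjusted p under 0.01 and without each library in turn. Bloc1s1 was below the filter of 1 CPM in 3 libraries and had no value there. The number of genes called was 7976, and 7080 to 7708 without a library. Same-numbered libraries did not vary together (correlations of their deviations -0.128, -0.00179 and -0.0609 over 12841 genes). With 3 libraries a group, this check cannot show whether same-numbered samples were handled together. The replicate number was left out of the main fit. With the replicate block 7737 genes and 4 substrates were called. Values of the named relatives that lost or gained a call stand beside them in the report, apart from these. Smoc2 passed with plain library sizes (adjusted p = 0.0448) and with the block (adjusted p = 0.0351). Fstl1 passed with 4 other settings (adjusted p 0.0381 to 0.0497). Some genes near 0 that did not pass changed sign. Leaving out 1 library gave log2 fold changes of -0.23 to 0.06 for Rdh5, -0.02 to 0.04 for Rtcb, -0.01 to 0.09 for Fam98b, -0.09 to 0.01 for Xrn1 and -0.01 to 0.03 for Galnt10. Rdh5 had 0.03, Rtcb -0.00 and Xrn1 0.01 without EV_Tm replicate 3, Xrn1 0.00 without PBS_Tm replicate 3 and 0.01 with plain library sizes. Low counts limit what can be said of Scara3, with 0 counts and no comparison, and of Bloc1s1, whose 95% interval spans -0.53 to 1.27.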

Other observations

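Counts of overlapping genes varied with the share of exonic bases held by another gene on the same strand. Among 275 protein-coding genes with at least 50% but under 100% of their bases shared, as for Bloc1s1, the median count over the 6 libraries was 13, and 86 (31.3%) had 0 counts. Among 1336 genes with a smaller share the median was 2616 counts and 14.1% were at 0, and among 20284 with none it was 371 and 26.8%. These are descriptions across genes, which differ in length and level as well.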
